A study of Drosophila melanogaster with 23 samples.

Results

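The stretches of the Drosophila melanogaster genome most crowded with accessible chromatin in the stage-5 blastoderm, outside the Hox complexes, are described here. Peaks of all 22 lists that overlapped by at least 1 bp were joined into accessible regions, and chromosome arms X, 2L, 3L and 3R were divided into windows of 100 kb counted from position 1. A window was called dense when the centres of 35 or more regions lay in it. Of 980 windows, 160 (16.3%) were dense, and they held 6748 of the 25311 regions in the series (26.7%). The other 810 windows held 12774 regions. The 2 Hox stretches, 3R 2400001-2900000 and 3R 12400001-12900000, were left out with 451 regions, and 5338 regions lay on 2R and 4. All coordinates are on build dm3. No gene annotation of that build was used, so windows are given by position and are tied to no gene.

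The assay was ATAC-seq, in which a transposase cuts and tags open DNA. Nuclei of 7 domains along the head-to-tail axis carried the nuclear envelope protein UNC84 fused to 3xFLAG and were pulled down with an antibody against the tag. Each strain was transgenic in a wild-type background, and embryos from population cages were collected for 20 min, aged for 150 min and frozen at 190 min. Whole-embryo libraries were made in the same way without the pull-down.

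The tag was driven by hb_anterior_Hs34_UNC84-3xFLAG in D1, eve_stripe1_DSCP_UNC84-3xFLAG in D3 and eve_stripe2_DSCP_UNC84-3xFLAG in D2, which form the anterior group. D_central_Hs43_UNC84-3xFLAG in D4 and Kr_central_Hs43_UNC84-3xFLAG in D5 made up the central domains, and eve_stripe5_DSCP_UNC84-3xFLAG in D6 and gt_posterior_Hs43_UNC84_3xFLAG in D7 the posterior ones. Each domain had 2 tagged libraries. The 8 whole-embryo libraries came from the D1, D4, D5 and D7 strains, 2 per construct. The 2 libraries of a domain were described as independent strains, but both D3 libraries carry the same strain label (D3 line A). The purity of the pulled-down nuclei cannot be read from peak lists. The lists held 16830 to 22169 peaks in tagged libraries and 19612 to 21064 in whole-embryo libraries, and read depth was unknown. The p-values measure the spread between these libraries, which may be partly technical.

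The genes whose enhancers drove the tag pattern the early embryo. hunchback, Krüppel and giant encode gap gene transcription factors, even-skipped is a pair-rule gene expressed in stripes, and Dichaete encodes a Sox-family factor of the trunk. Accessible regions at this stage are mostly promoters and enhancers, many of them opened with the help of the pioneer factor Zelda. Genes that control development are often flanked by arrays of enhancers, and stretches rich in housekeeping genes hold many promoters.

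Windows held a median of 19 regions, and 15 held none. Dense windows held a median of 41, and the fullest held 62. The Hox windows reached 72 regions, and 8 of those 10 would have passed the threshold. At the edge of the rule, 12 windows held exactly 35 centres, with 420 regions of which 44.8% were found in every library, and 17 windows held 34 centres, with 578 regions of which 46.2% were found in every library.

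**Figure D1:**
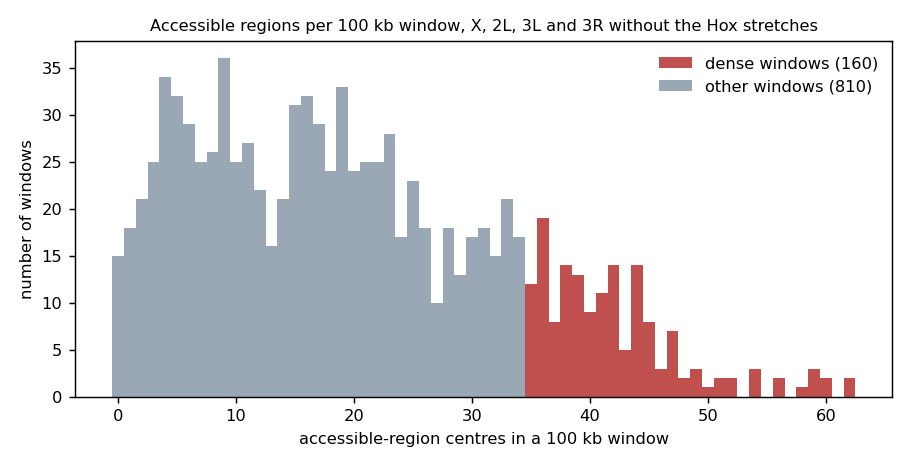
Number of 100 kb windows (vertical axis) by the number of accessible-region centres they hold (horizontal axis), on X, 2L, 3L and 3R without the Hox stretches, with the 160 dense windows in red and the 810 other windows in grey. The dense windows are the upper tail of a single broad distribution that starts at 35 and ends at 62, with no gap at the threshold.

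The dense windows were spread unevenly over the arms. On 3R 58 of 279 windows (20.8%) were dense, with 2472 regions, and on X 42 of 225 (18.7%), with 1766 regions. On 2L 33 of 230 windows (14.3%) were dense, with 1355 regions, and on 3L 27 of 246 windows, with 1155 regions. Of the 160 windows, 87 had a dense neighbour and 73 stood alone, making 103 separate runs. The longest runs had 7 windows each, at 3L 100001-800000 with 315 regions and at 3R 19500001-20200000 with 299 regions. A run of 6 windows at 3R 600001-1200000 held 293 regions and both of the fullest windows, and a run of 5 at X 1900001-2400000 held 218.

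The regions in dense windows were wider and nearer to each other than those elsewhere, and their peaks had a slightly lower fold enrichment. The density that chose them came from the same peak lists, so these values describe the members and carry no test. Their median width was 513 bp, against 460 bp in the other windows. For regions found in all 22 libraries the medians were 952 bp in dense windows and 826 bp elsewhere. Regions over 2 kb wide made up 7.02% of the regions in dense windows and 4.81% of those in other windows. Accessible DNA covered 34.6% of the length of dense windows, against 11.2% of the other windows. The median gap to the next region was 554 bp in dense windows and 1266 bp in others, and 64.6% of gaps in dense windows were under 1 kb, against 45.5% in others. The authors' fold enrichment at the peak summit, taken as the highest over the lists, had a median of 2.75 in dense windows and 3.03 in others. For regions found in all 22 libraries it was 6.07 in dense windows and 6.17 elsewhere. In each of the 22 libraries the median fold was lower in dense than in other windows.

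The share of regions found everywhere was nearly the same in dense and other windows. In dense windows 43.2% of regions (2915) were found in all 22 libraries and 10.6% (715) in a single library, against 43.0% and 10.2% in the other windows. A region was called domain-variable when some domain had it in both of its libraries while another domain lacked it in both. Such regions numbered 1397 in dense windows, 21.6% of those found in tagged nuclei. In the other windows they numbered 2664 (21.9%). Over the 857 windows outside the Hox stretches with 5 or more regions, the number of regions per window had a Spearman rho of 0.123 with the share found in all 22 libraries and of -0.0688 with the domain-variable share, given as a description over windows that share the same libraries. Regions that several of the 14 tagged libraries found and several lacked, domain-variable or not, were compared with their neighbours. Within a dense window such neighbours varied together with a median correlation of 0.389 over 502 pairs, against 0.330 over 839 pairs in other windows. For regions 50 such regions apart the medians were 0.167 in dense windows and 0.149 in others. Pairs were not matched for distance, and the median gap to the next region was 554 bp in dense windows and 1266 bp in others. List length was not divided out of these correlations.

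The share of regions found differed more between libraries than between dense and other windows. D1 libraries found 69.9% of dense-window regions (mean of 2 libraries) and 71.0% of those in other windows. D3 libraries found 59.1% of dense-window regions and 60.4% of the others, and D2 libraries 63.1% of dense-window regions and 62.0% of the others. Among the anterior domains the sign of the gap thus differed. D4 libraries found 70.9% of dense-window regions and 70.4% of the others, and D5 libraries 70.7% of dense-window regions and 70.5% of the others. D6 libraries found 55.9% of dense-window regions and 56.8% of the others, and D7 libraries 64.0% of dense-window regions and 61.1% of the others. D7 was the domain with the widest gap. Over all 14 tagged libraries the means were 64.8% ± 7.07 of dense-window regions and 64.6% ± 6.74 of the others (SD, n = 14). Whole-embryo libraries found 69.4% ± 2.21 of dense-window regions and 70.1% ± 2.24 of the others (SD, n = 8). The largest gap was in D7 replicate 1, with 67.4% of dense-window regions and 62.0% of the others, a difference of 5.39 percentage points, and D7 replicate 2 differed by 0.580. The other 12 tagged libraries lay between -2.05 and 1.99 points, and the whole-embryo libraries between -2.50 and 0.786.

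**Figure D2:**
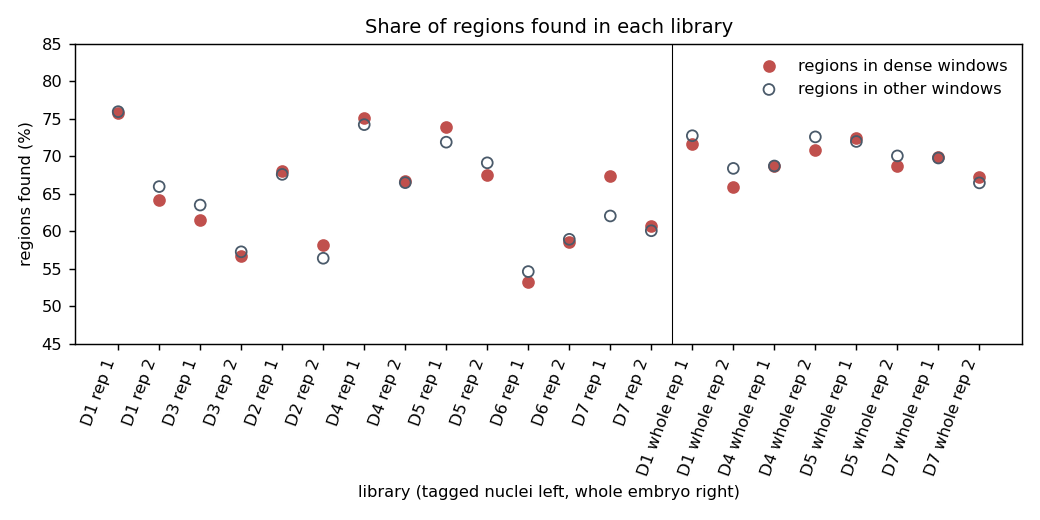
Percentage of regions found (vertical axis, starting at 45%) in each library, tagged libraries on the left and whole-embryo libraries on the right, for regions in dense windows (filled) and in other windows (open). The pair of points differs by -2.50 to 1.99 percentage points in every library but D7 replicate 1, which found 67.4% of dense-window regions and 62.0% of the others.

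To test the share per domain without the tagged lists choosing the windows, dense windows were chosen from the whole-embryo lists alone. They were measured in the 14 tagged libraries, with 174 windows of 33 or more centres, 148 of which the rule also had. The whole-embryo lists came only from the D1, D4, D5 and D7 strains. Libraries of the same strain label deviated together (mean correlation 0.357), so the choice was not independent of those domains. These windows held 6932 regions and the others 11446. The value is the share of dense-window regions found minus the share of other regions found, in points, per library. The anterior libraries averaged 1.04 ± 1.57 (SD, n = 6) and the other 8 averaged 1.39 ± 2.34, a difference of -0.354 points (exact permutation test, two-sided, p = 0.775). The central libraries averaged 0.966 ± 1.73 (n = 4) and the other 10 averaged 1.35 ± 2.15, a difference of -0.388 points (exact permutation p = 0.753). The posterior libraries averaged 1.82 ± 3.04 (n = 4) and the other 10 averaged 1.01 ± 1.54, a difference of 0.813 points (exact permutation p = 0.532). None of these 3 differences was larger than the spread between libraries. These tests took libraries as units, though the 6 anterior libraries come from 3 domains, and the central and the posterior ones from 2 each. With domains as units the smallest exact permutation p would be 0.0286 for 3 of 7 domains and 0.0476 for 2 of 7. Without D7 tagged replicate 1 the posterior difference was -0.649 points and the anterior one 0.333. With lists cut to equal length by the authors' -log10 q the posterior difference was 2.50 points (exact permutation p = 0.0480), and by width it was -0.631 (p = 0.671).

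Taken by domain, D7 differed most from the other 6, by 2.95 points (3.77 ± 3.44 in 2 libraries and 0.821 ± 1.48 in 12). Its exact permutation p was 0.0549, adjusted 0.385 over the 7 domains, where the smallest p that 2 of 14 libraries allow is 0.0110. Even at that smallest p a single domain could not pass 0.05 after adjustment, so the adjusted value cannot decide whether D7 differs. The 2 D7 libraries gave 6.21 and 1.34, and without replicate 1 the difference was 0.521. The other 6 domains differed by -1.61 (D3) to 1.77 (D2) points from the rest, with adjusted p from 0.538 to 0.802 by the exact permutation test. Library names were written in 3 styles, a possible batch, and D7 replicate 1 has the style of replicate 1 of D1, D4 and D5. Among the 7 tagged libraries of the second style the D7 difference was 1.36 points. In that style the anterior difference was 0.341, the central one -0.598 and the posterior one 0.190. The other styles held too few libraries of one side.

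**Figure D3:**
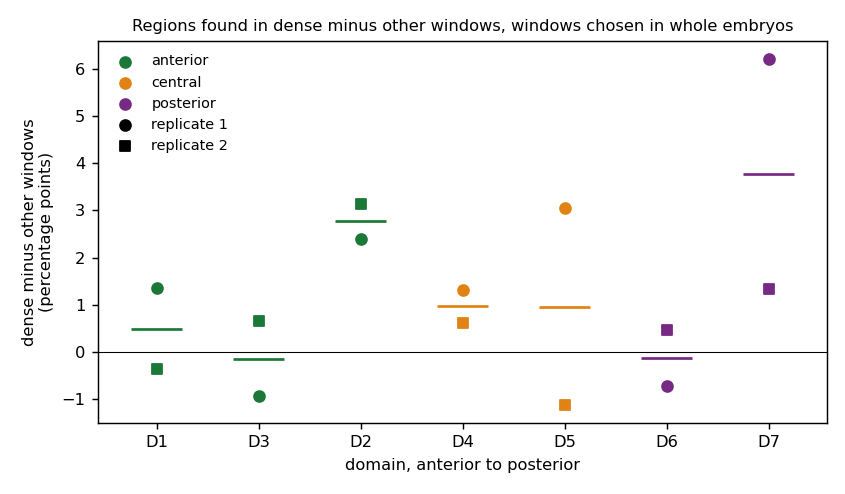
Share of regions found in dense minus other windows (vertical axis, percentage points) in each tagged library by domain from anterior to posterior, with windows chosen from whole-embryo lists, circles for replicate 1, squares for replicate 2 and lines for the mean of each domain. Most points lie between -1.13 and 3.14, and D7 replicate 1 stands at 6.21.

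For tagged nuclei against whole embryos, windows were chosen from the 6 lists of D2, D3 and D6, which gave 170 windows of 31 or more centres, 140 of them also chosen by the rule. All 6 are tagged lists, so the choice of regions and windows may favour tagged libraries. How far it did was not tested. The 8 tagged libraries of D1, D4, D5 and D7 averaged 0.498 ± 2.22 points and the 8 whole-embryo libraries of the same strains -0.530 ± 0.849, a difference of 1.03 points (exact permutation test, two-sided, p = 0.267, n = 8 each). The tests in this paragraph shuffled libraries without regard to strain. Tested within strains, as given in the last paragraph, the same difference did not pass 0.05 either. In 6 of 8 strains the tagged library was higher, with differences between -0.535 and 5.24 points, the highest being the strain of D7 replicate 1. Without that library the difference was 0.345 points. With lists cut to equal length by -log10 q it was 2.28 points (exact permutation p = 0.0238), and 1.52 points (p = 0.0480) when the D7 replicate 1 list was also left out, an alternative added after seeing the data. Within the first naming style the difference was 1.88 points (exact permutation p = 0.0857) and within the second 0.176.

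The dense windows were also compared one at a time, by the percentage of a library's regions that lay in the window. Over 1062 windows, 160 of them dense, an exact permutation test over libraries with Benjamini-Hochberg adjustment called 0 windows in each direction of each comparison, 0% of all windows tested. A call needed at least 8 windows at the smallest possible p for anterior domains, and 22 each for central and posterior domains. The numbers reached were 6, 7 and 8. A window standing alone could thus not be called, and 0 calls do not show that no window differed. At unadjusted p under 0.05, 9 dense windows (5.62%) held a larger share in anterior domains, where 8.19% of all windows did, and 12 (7.50%) a smaller share, where 6.87% of all windows did. For central domains 10 dense windows (6.25%) were higher and 10 lower, against 6.40% and 6.31% of all windows. For posterior domains 13 (8.12%) were higher and 4 (2.50%) lower, against 7.16% and 5.37% of all windows. No difference between dense and all windows was tested. By the number of regions in place of the share, 45 dense windows (28.1%) passed that level for more in central domains, against 23.3% of all windows, and 0 for less, against 0.0942%. By number, 1 dense window passed for more in anterior domains and 5 for less, against 3.30% and 2.73% of all windows. For posterior domains 0 passed for more and 21 for less by number, against 0.188% and 16.6% of all windows, and the exact permutation test still called 0 windows. The split between higher and lower windows thus depended on whether list length was divided out.

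By limma on log2 values, 3 dense windows (1.88%) were called lower in anterior domains, against 13 of all windows (1.22%), and 0 were called higher, against 12 (1.13%). For central domains limma called 0 dense windows, of 2 higher (0.188%) and 1 lower (0.0942%) over all windows, and for posterior domains 0 dense windows, of 2 higher and 2 lower (0.188% each). At unadjusted p under 0.05 limma had 9 dense windows for more and 11 for less in central domains, against 6.59% of all windows in each direction. For posterior domains it had 12 for more and 6 for less, against 5.65% and 6.87% of all windows.

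The clearest window was 3R 5700001-5800000, with 40 regions of which 9 were found in all 22 libraries and 19 were domain-variable. Anterior libraries found 9 and 12 regions in D1, 13 and 11 in D3 and 10 and 9 in D2. The central libraries found 28 and 29 in D4 and 30 and 31 in D5, and the posterior ones 17 and 31 in D6 and 28 and 20 in D7. The anterior libraries were all below the other tagged libraries. Whole-embryo libraries found 14 to 22 regions, 17.9 ± 3.18 (SD, n = 8), above every anterior library and overlapping the posterior ones. Since all anterior libraries lay below all other tagged ones, the same order within each naming style was given in advance and is no separate check. The numbers were 9 regions against 28 to 30 in the first style, 10 to 13 against 17 to 31 in the second, and 9 and 11 against 31 in the third. The window held 0.0665% ± 0.0131 of a library's regions in anterior domains and 0.162% ± 0.0276 in the others (n = 6 and 8), with exact permutation p = 0.000333, the smallest that 6 of 14 libraries allow, and adjusted p = 0.0589. With limma the log2 difference was -1.18, adjusted p = 1.20e-05. Both tests counted the 2 libraries of a domain as separate units. Windows with groups that do not overlap in the percentage were 2 dense of 6 in all for less in anterior (0.565% of windows) and 0 dense of 4 for more (0.377%). With the 2 regions of the window that separate the groups by themselves set aside, anterior libraries held 9 to 13 regions and the others 15 to 29.

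The other of these dense windows was 2L 12600001-12700000, with 36 regions. Anterior libraries found 18 to 22 of them, the other tagged libraries 21 to 33 and whole embryos 22 to 28. The groups overlap in number and not in the share of a library's regions. That share differed by -0.0422 points (exact permutation p = 0.000666, adjusted 0.0707, and limma adjusted p = 0.00254). The third window that limma called, 2L 9100001-9200000, had adjusted p = 0.0412. In the opposite direction, X 9500001-9600000 had 26 to 36 of 39 regions in anterior libraries and 22 to 31 in the others (exact permutation adjusted p = 0.0923), and 3R 21400001-21500000 had 20 to 35 of 39 in anterior libraries and 18 to 24 in the others (adjusted p = 0.103). Leaving out D6 tagged replicate 1, which found 17 regions in the window at 3R 5700001-5800000, gave adjusted p = 0.0442 by the exact permutation test for 3 dense windows, namely 3R 5700001-5800000 and 3R 700001-800000, lower in anterior domains, and X 9500001-9600000, higher. Over all windows that setting called 5 lower (0.471%) and 9 higher (0.847%).

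**Figure D4:**
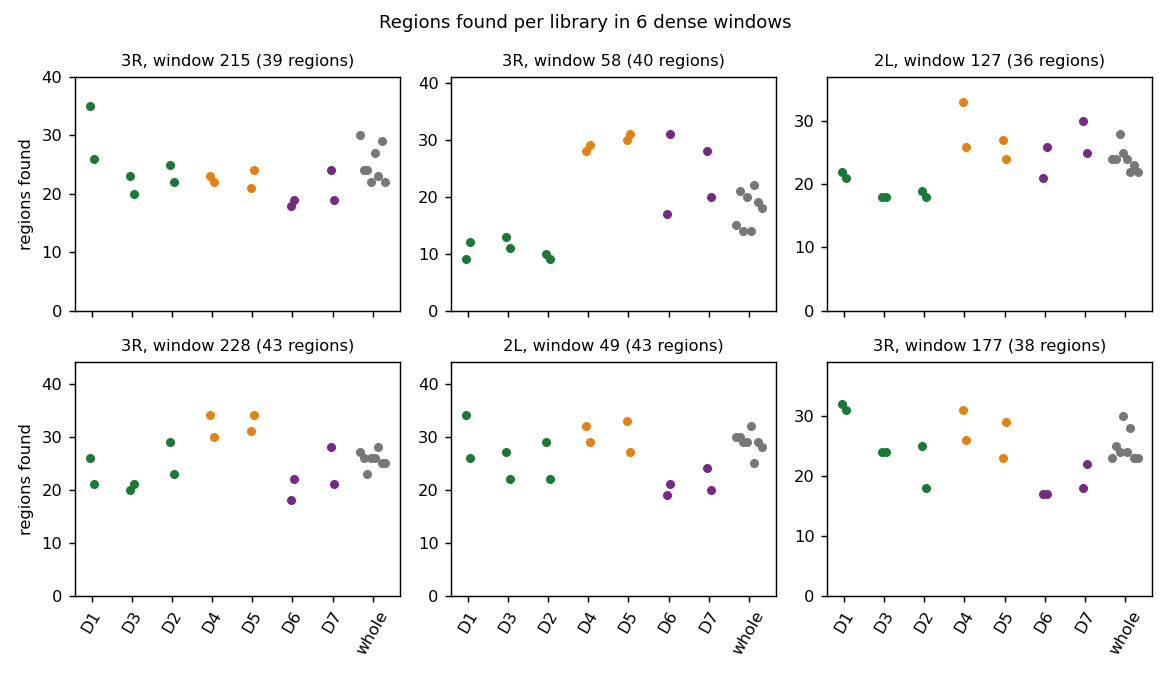
Number of regions found per library (vertical axis) in 6 dense windows by domain, anterior domains in green, central in orange, posterior in purple and whole embryos in grey, one point per library. In window 58 of 3R the 6 anterior libraries lie at 9 to 13 and the other tagged libraries at 17 to 31, and the window numbers in the titles count from the start of the arm.

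The windows named for central and posterior domains had larger adjusted p-values. In 3R 22700001-22800000 the central libraries found 34 and 30 regions in D4 and 31 and 34 in D5, of 43, while the other tagged libraries found 18 to 29 (exact permutation adjusted p = 0.168). The groups do not overlap in number there, but do in the share of a library's regions. How many of all windows lack overlap in number was not counted. In 2L 21700001-21800000 the central libraries found 26 to 31 of 40 regions and the others 14 to 24 (adjusted p = 0.168 by the exact permutation test), and whole embryos found 23 to 30. This was the single dense window of 3 (0.282%) whose percentages did not overlap for more in central domains, and for less there were 0 dense windows of 6 (0.565%). For less in central domains, 3R 20100001-20200000 held 22 to 28 regions in central libraries and 22 to 29 in the others, and X 7100001-7200000 held 24 to 31 in central libraries and 24 to 36 in the others. Those groups overlap both in number and in the share of a library's regions. The mean share was lower in central libraries, with exact permutation adjusted p = 0.225 on 3R and 0.292 on X.

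For posterior domains the lower windows had lower means in number too, with overlap between the groups. In 2L 4800001-4900000 posterior libraries found 19 and 21 regions in D6 and 24 and 20 in D7, of 43, and the other tagged libraries found 22 to 34 (exact permutation adjusted p = 0.133). It was the only dense window of 4 (0.377%) without overlap in the share of a library's regions for less. In 3R 17600001-17700000 posterior libraries found 17 and 17 in D6 and 18 and 22 in D7, of 38, and the others 18 to 32 (exact permutation adjusted p = 0.255), and 19 of its regions were domain-variable, the highest share of any dense window at 50.0%. For more in posterior domains, 3L 16000001-16100000 held 26 to 31 regions in posterior libraries and 23 to 34 in the others (1 dense window of 5, 0.471%, without overlap in the share), and 2L 4000001-4100000 held 36 to 41 in posterior libraries and 31 to 40 in the others. In number these groups averaged 28.5 in posterior libraries and 29.4 in the others at the window on 3L, and 38.0 and 37.4 at the window on 2L. The posterior lists held 16830 to 18529 peaks and the other tagged lists 17412 to 22169.

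The fullest windows held their highest numbers in different libraries. Both windows at 3R 1000001-1200000 held 62 regions, X 12100001-12200000 and 3R 9500001-9600000 held 60, and X 2500001-2600000 held 59. In 3R 1100001-1200000 the central libraries found 37 and 56 regions in D4 and 44 and 41 in D5, and the other tagged libraries 20 to 33 (exact permutation adjusted p = 0.196 for the share of a library's regions). In 3R 1000001-1100000 they found 42 and 43 in D4 and 52 and 41 in D5, and the others 26 to 40 (exact permutation adjusted p = 0.345). In both windows every central library had more regions than any other tagged library, while the share of a library's regions overlapped between the groups and neither window was called. By number, 23.3% of all windows passed unadjusted p under 0.05 for more in central domains by the exact permutation test. Windows without overlap in number were not counted over all windows. The central lists held 19184 to 21284 peaks. In 3R 9500001-9600000 the tagged libraries found 19 to 39 regions and whole embryos 25 to 49. In the first naming style the ranges were 25 to 39 for tagged libraries and 36 to 49 for whole embryos. In the second they were 21 to 28 and 25 to 32.

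The share of regions found in all 22 libraries ranged from 4 of 40 regions in 3R 18000001-18100000 to 25 of 35 in 2L 16200001-16300000. At 3R 18000001-18100000 the tagged libraries found 9 to 35 regions and the whole-embryo libraries 11 to 29, with D6 at 9 and 25 and D5 at 10 and 24, so the libraries of 1 domain lay far apart. The whole-embryo libraries of the first naming style found 11 to 19 and those of the second 22 to 29. Tagged libraries of these styles overlapped, with 10 to 28 in the first and 9 to 35 in the second. The cause was not tested. At 3L 2800001-2900000, where 10 of 42 regions were found in all libraries, D7 found 33 and 13 and D5 found 13 and 27. Whole-embryo libraries found 12 to 19 there in the first naming style and 19 to 27 in the second, and tagged libraries 13 to 33 and 12 to 34. In X 12600001-12700000, 24 of 37 regions were found in all libraries and 2 were domain-variable.

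**Figure D5:**
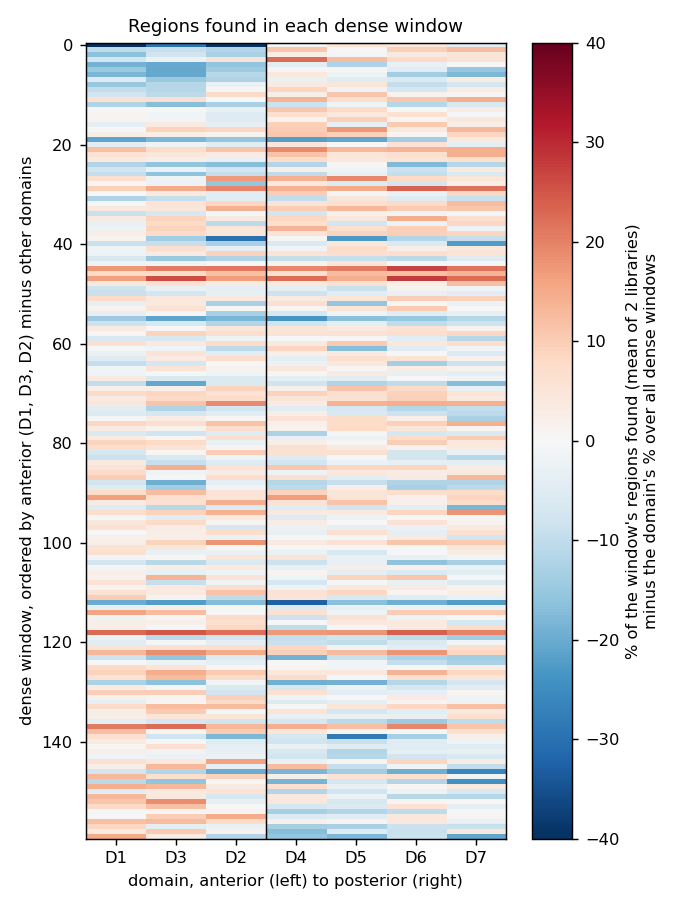
Share of each dense window's regions found in each domain (mean of 2 libraries) minus the domain's share over all dense windows, in percentage points, with the 160 windows as rows ordered by anterior minus other domains and the 7 domains as columns. The order makes the top rows low and the bottom rows high in D1, D3 and D2 by construction, and the top row, 3R 5700001-5800000, is the deepest blue.

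Regions found in every library of one group of domains and in no other tagged library were rare among the dense windows. In anterior domains 6 regions were found in all 6 libraries and in none of the other 8 (0.120% of all regions found in tagged nuclei) and 5 were missing from those alone (0.0992% of all). Leaving out 1 library gave 6 to 13 and 5 to 8, the most without D2 replicate 2 and without D6 replicate 1. The dense-window shares were 0.0927% and 0.0773%. The strongest found in anterior libraries were 2L 7591533-7592005, 473 bp with a median fold of 2.93 and found in 6 whole-embryo libraries, and X 7161430-7161749, with a median fold of 2.75 and found in all 8. The strongest missing from them was 2L 4312240-4312782, with a median fold of 3.01. Of the 5 missing ones, 2 lie in 3R 5700001-5800000 (5731297-5731613 and 5763809-5764195) and 2 in 2L 12600001-12700000, of which 12624007-12627217 is 3211 bp long.

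In central domains 6 regions were found in all 4 libraries and no other tagged library (0.149% of all regions), led by 2L 16283597-16283891 with a median fold of 2.40, and 0 were missing from them alone (0%). Without D5 replicate 2 the first count was 15. In posterior domains 0 were found only there (0%), and 4 were missing from them alone (0.0702%), of which 3R 12042273-12042748, found in all 8 whole-embryo libraries, had a median fold of 2.81. Leaving out 1 library gave 4 to 9 missing, with 9 without D6 replicate 1 or D7 replicate 1. Fisher's exact test, with Benjamini-Hochberg adjustment over 9284 regions of which 2470 lay in dense windows, called 0 regions. Fully separated regions, which have the smallest p possible, had adjusted p of 0.0583 (anterior), 0.258 (central) and 0.546 (posterior) in this test. It could thus not call a region standing alone. At unadjusted p under 0.05 it gave 65 dense-window regions (2.63%) for more in anterior domains, against 3.03% of all regions tested, and 62 (2.51%) for less, against 2.76%. It gave 123 (4.98%) for more in central, against 5.22%, and 5 (0.202%) for less, against 0.248%. For posterior it gave 5 (0.202%) for more, against 0.280%, and 67 (2.71%) for less, against 3.48%. limma was not run on single regions.

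Some regions were present in both libraries of a domain and absent from every other tagged library. In dense windows D1 had 28 of these, D4 18, D7 11, D5 10, D2 2, D3 1 and D6 0. In the other windows D1 had 71, D5 39, D4 29, D3 13, D7 5, D2 4 and D6 0. As shares of the regions found in tagged nuclei, D7 had 0.170% in dense windows and 0.0411% in the others, and D4 had 0.278% in dense windows and 0.239% in the others. For D1, D3, D2 and D5 the share was lower in dense windows. Of the 11 D7 regions, 6 lay in the 2 neighbouring windows 3L 5600001-5800000, with mean folds of 1.83 to 2.56, and 3 of those 6 were in no whole-embryo list. At 3L 5700001-5800000, with 44 regions, D7 replicate 1 found 35 and D7 replicate 2 found 25, and the other 12 tagged libraries found 16 to 25. By number the high value was in replicate 1 alone, since 25 was also reached in D1 replicate 1. That D1 list was longer, with 22169 peaks against 17970 in D7 replicate 2, and list length was not divided out here. That cluster was chosen after its values were seen and gets no test.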

How the data were processed

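ATAC-seq libraries of 14 tagged-nuclei samples and 8 whole-embryo samples were used, each as 1 peak list on dm3. The authors made them with Bowtie2 2.2.9, SAMtools 1.3.1 and MACS2 2.1.1.2, per the submitters' processing notes, and the labels name a genomic DNA library, not analysed here, as the reference for peak calling. The deposited score of a peak and the authors' fold enrichment and -log10 q, per the file headers and attributes, only rank, filter or describe peaks. Other settings, such as the shift of transposase cuts, are not given in the sources used here, and the read depth is unknown, so no intervals are given.

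Peaks were merged and assigned to windows as the report states. A library was taken to have a region where any of its peaks lay in it. Library names have 3 styles, with 4, 7 and 3 tagged libraries. The rule chose the members from all 22 lists. The tests of dense minus other windows used windows chosen from lists they did not test, while the tests of single windows and regions used the 160 windows of the rule, whose choice includes the 14 tagged lists tested. Members, groups and windows were chosen with earlier results of these data known. Single values were tested with two-sided exact permutation tests on the absolute difference of means, all libraries being used, with Benjamini-Hochberg adjustment over windows, domains or regions and a threshold of 0.05. Windows with 5 or more regions found in tagged nuclei were tested over X, 2L, 2R, 3L, 3R and 4, and limma 3.58.1 in R 4.3.3 on log2(percent + 0.01) was the alternative. Named windows were the 5 densest and, as 0 were called, the 2 with the smallest p per comparison and direction. Named regions were up to 5 fully separated ones per comparison and direction, by median fold. Windows at the ends of the range found in all libraries, 3L 5600001-5800000, and windows called by limma or without a library were named after their values were seen.

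Python 3.11.15 with numpy 2.4.6, scipy 1.17.1 and matplotlib 3.10.9 was used. Scripts were tested on simulated data. Tagged and whole-embryo libraries of the same strain label deviated together with a mean correlation of 0.357 (-0.0648 to 0.712), against -0.0501 for different strains. Tagged libraries sharing a replicate number had a mean correlation of 0.0571, so replicate numbers were not taken as pairs. Gene lists and markers of the tagged domains were not tested, since the peaks carry no gene names.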

Additional observations from a re-analysis of the deposited data

Results flagged for a closer look

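In X 9500001-9600000, D1 tagged replicate 1 stood apart from the other anterior libraries, with 92.3% of the window's 39 regions found, against 66.7% to 74.4% in the other 5. In 3R 21400001-21500000, D7 tagged replicate 1 stood apart from the other posterior libraries, with 61.5% of 39 regions found, against 46.2% to 48.7% in the other 3. Both are gaps larger than the limit for a group of that size in Dixon's test, which chance passes in about 1 in 20 groups, and 2 of 73 groups examined passed it. The cause was not tested.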

How the results depend on the processing

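The numbers of dense windows and regions followed the definition. Windows of 50 kb with 18 centres gave 367 dense windows, and windows of 200 kb with 70 centres gave 48 with 3945 regions. Thresholds of 30 and 40 gave 248 and 94 windows, the second with 4309 regions. Lists of equal length gave 87 windows with 3440 regions by -log10 q and 94 with 3757 by width. Leaving out 1 library gave 158 to 164 windows and 6617 to 6893 regions.

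The differences between domains in dense minus other windows, of which D7 had the lowest p, changed sign under some settings. For anterior the second naming style gave 0.341. For central it was 0.214 with windows chosen from all 22 lists, 0.0524 with the Hox stretches kept, 0.796 with lists of equal length by width and 0.621 with 50% overlap. For posterior it was 2.50 (p = 0.0480, exact permutation) by -log10 q and -0.631 by width. D4 gave 0.380 (all 22 lists), 0.0323 (Hox stretches kept), 0.198 (-log10 q of 5 or more), 0.947 (by width), 0.254 (50% overlap) and 0.522 (second style). D5 gave 0.0550 with the Hox stretches kept, 0.379 by width and 0.781 with 50% overlap. D6 gave 0.451 by -log10 q. In the alternatives added after seeing the data, D3 gave 0.273, D4 0.0644 and D6 0.914, and tagged minus whole embryo 1.52 (2.28 with every list). Leave-one-out gave -0.774 to 0.333 (anterior), -1.08 to 0.310 (central), -0.649 to 1.66 (posterior), -1.72 to -0.0167 (D1), -2.40 to -0.823 (D3), 1.399 to 2.25 (D2), -0.668 to 0.127 (D4), -2.42 to 1.77 (D5), -2.20 to -1.003 (D6), 0.521 to 5.39 (D7) and 0.345 to 1.41 (tagged minus whole embryo). Without D7 tagged replicate 1 the anterior, central, posterior, D4 and D5 differences changed sign, as did central and D5 without D5 tagged replicate 2, anterior without D3 tagged replicate 1 (0.0401) and D4 without D4 tagged replicate 2 (0.0269). The cause was not tested.

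The count of dense windows called was 3 with limma for less in anterior, of 25 windows called in either direction, and leave-one-out gave 0 to 1 for more and 0 to 2 for less in anterior (without D6 tagged replicate 1, where 14 of all windows were called), and 0 for the rest. For anterior, lists of equal length called 8 windows by -log10 q and 15 by width, 0 of them dense. Fully separated regions found only in anterior numbered 3 by width, missing there 1 with windows 50 kb later, -log10 q of 5 and both equal-length lists, found in central 1 and 3, missing there 1 and 3, and missing in posterior 1 by -log10 q. Leave-one-out gave 6 to 13 found and 5 to 8 missing (anterior), 6 to 15 and 0 to 1 (central), and 0 to 1 and 4 to 9 (posterior). These counts moved by over 1.5 times without D2 replicate 2 or D5 replicate 1 (anterior found), D6 replicate 1 (anterior missing), any D4 or D5 library, D6 replicate 2 or D7 replicate 1 (central found), and any D6 or D7 library or D3 replicate 2 (posterior missing). By number of regions, 3R 20100001-20200000 (0.25) and 3L 16000001-16100000 (-0.9) changed sign.

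With a replicate block, which permutes within replicate numbers or strains, the differences stayed at -0.354, -0.388, 0.813 and 1.03 by construction, with p = 0.764 (anterior), 0.748 (central), 0.540 (posterior) and 0.109 (tagged against whole embryo) by exact permutation, and it changed no call. Read depth was unknown, so a region not found was only below the authors' threshold.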
